A study of Mus musculus with 6 samples.

Results

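The 9 complement genes C1qa, C1qb, C1qc, C1ra, C2, C3, C4b, Cfb and Serping1 were taken by gene symbol from the 41709 genes in the deposited expression values, and all 9 were measured. The values come from RNA-seq of 6 tibialis anterior (TA) muscles of male C57BL/6J mice. In 3 muscles a plasmid for wild-type mouse Lrpprc with a Flag tag had been electroporated (LrpprcWT, the control), and in the other 3, contralateral to them, a plasmid for the P27A variant with the same tag (LrpprcP27A), in which a proline is replaced by alanine to make that site resistant to hydroxylation. Both groups therefore carried the injected hyaluronidase, the electroporation and a CMV-driven transgene on top of their own Lrpprc, and both were collected 14 days after electroporation. The study used young and old mice, and which of these gave the RNA-seq muscles is not given in the sources used here, muscles without electroporation were not analysed here, and a plasmid transcript cannot be told apart from the endogenous one.

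Complement is a cascade of plasma and tissue proteins that marks cells and debris for removal. In the classical pathway, C1q, made of 3 chains, binds its target and activates the proteases C1r and C1s, which cleave C4 and C2 to form an enzyme that cleaves C3. In the alternative pathway factor B, encoded by Cfb, joins C3b to form a second such enzyme, and Serping1 encodes the C1 inhibitor, which blocks C1r and C1s. The liver makes most of the complement in plasma, whereas in tissues C1q comes mainly from macrophages, and fibroblasts make C1r, C1s, C3, C4 and the C1 inhibitor.

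Levels are given as TPM, relative transcript abundances that correct for the length of a transcript, sum to 1000000 in every library and keep no sequencing depth. A limma fit on log2(TPM + 1) compared the groups across the 11611 genes with a mean of at least 1 TPM, and a gene was called at a Benjamini-Hochberg adjusted p under 0.05. The added 1 TPM makes fold changes of genes with low levels, such as C2 and C4b, look smaller than they are. On the deposited scale most genes had lower values with LrpprcP27A, with a median log2 fold change of -0.32 over all tested genes, so differences are also read against that shift. Lrpprc itself, the electroporated gene, was at 35.1, 37.0 and 75.2 TPM with LrpprcWT and at 26.9, 29.7 and 26.0 TPM with LrpprcP27A, a log2 fold change of -0.72 ± 0.26 (SE, n = 3 per group, limma adjusted p = 0.0652). The libraries of the groups also stood apart in a transcript annotated as ribosomal, Rn18s-rs5, at 8874 to 17614 TPM with LrpprcWT and 37023 to 44435 TPM with LrpprcP27A, and between 18603 and 19053 genes were above 0 with LrpprcWT against 17774 to 18197 with LrpprcP27A. The part of these differences in the results was not tested.

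C1qa, C1qb, C1qc, C1ra, C2, Cfb and Serping1 were lower in LrpprcP27A muscles than in LrpprcWT muscles, with log2 fold changes from -1.39 to -0.98, and their 2 groups did not overlap. C4b, with a log2 fold change of -0.89, had the lower value in all 3 pairs but did not pass the test, and C3 had a log2 fold change of 0.01 with overlapping groups. Pairs are muscles with the same replicate number, taken here as contralateral, which the labels do not state. Of the 9 members, 7 were called lower, where 23.3% of all tested genes were, and 0 were called higher, where 1.34% of all tested genes were. At an unadjusted p under 0.05 limma gave 8 lower and 0 higher, where 44.2% and 2.59% of all tested genes were, and the Kruskal-Wallis test also gave 0 higher. Every LrpprcP27A value lay below every LrpprcWT value for 7 of 9 members, against 47.6% of all tested genes, and 8 of 9 were lower in all 3 pairs, against 70.1% of all tested genes. The median log2 fold change was -1.08 over the members and -0.32 over all tested genes. In the fit with the replicate number as a block, which compares the muscles within these pairs, 8 of 9 members were lower and 0 higher, where 48.4% and 2.69% of all tested genes were.

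**Figure D1:**
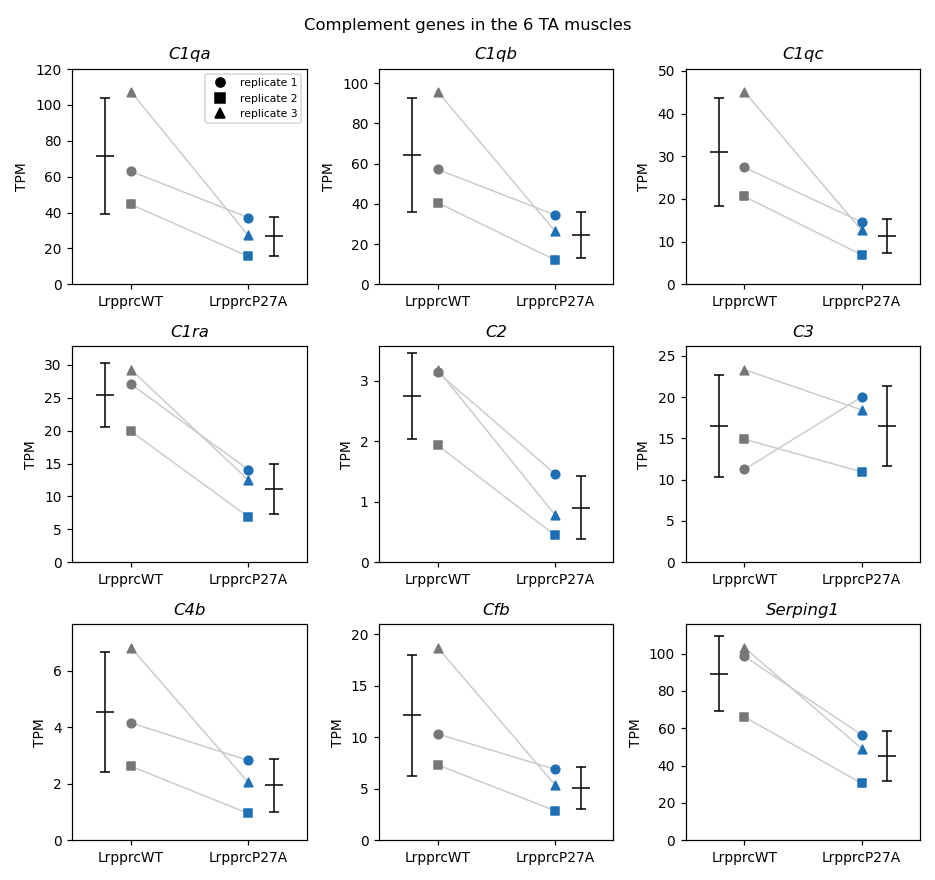
Level of the 9 complement genes in TPM (vertical axes, each from 0) in the LrpprcWT muscles (grey) and the LrpprcP27A muscles (blue). Symbols mark the 3 replicates, lines join muscles with the same replicate number, and bars give the mean and SD. All lines fall except that of replicate 1 for C3, which rises from 11.2 to 20.02 TPM, and the groups overlap for C3 and C4b only.

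The 3 chains of C1q had the largest log2 fold changes of TPM + 1 among the members, whereas with 0.1 TPM added C2 had the largest, at -1.61. C1qa was at 63.0, 44.5 and 107.4 TPM with LrpprcWT and at 37.2, 15.6 and 27.3 TPM with LrpprcP27A. The lowest LrpprcWT muscle lay above the highest LrpprcP27A muscle, and the means were 71.6 ± 32.3 and 26.7 ± 10.8 TPM (SD, n = 3), a log2 fold change of -1.38 ± 0.35 (SE, limma adjusted p = 0.0306, 95% interval -2.18 to -0.57). C1qb was at 57.1, 40.6 and 95.7 TPM with LrpprcWT and at 34.5, 12.1 and 26.5 TPM with LrpprcP27A. The order of the muscles within each group was that of C1qa, and the log2 fold change was -1.39 ± 0.39 (SE, n = 3 per group, limma adjusted p = 0.0373). C1qc was at 27.4, 20.6 and 45.1 TPM with LrpprcWT and at 14.6, 6.92 and 12.6 TPM with LrpprcP27A. These groups were separate too, and the log2 fold change was -1.36 ± 0.31 (SE, n = 3 per group, limma adjusted p = 0.0250).

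The shares of the 3 chains in their summed level overlapped between the groups. C1qa made up 42.7% ± 0.557 of the summed C1q level with LrpprcWT and 43.1% ± 2.02 with LrpprcP27A (SD, n = 3). For C1qb the shares were 38.6% ± 0.158 and 38.3% ± 2.87, and for C1qc 18.7% ± 0.662 and 18.6% ± 1.56, with overlapping groups for each chain. The summed C1q level itself was 167 ± 73.3 TPM with LrpprcWT and 62.5 ± 26.0 TPM with LrpprcP27A (SD, n = 3), and the widest gap within a pair was in replicate 3, where C1qa had a difference of -1.94 on the log2 scale, against -0.74 in replicate 1. The 3 genes lie next to each other on one strand of chromosome 4 within 20153 bases, in the order C1qb (chr4:136606009-136613511), C1qc (chr4:136616466-136620376) and C1qa (chr4:136623223-136626161) on GRCm39, with 2954 bases between C1qb and C1qc and 2846 between C1qc and C1qa.

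C1ra and C2 carry the next steps of the classical pathway. C1ra, the protease that C1q activates first, lies at chr6:124489364-124500402 and was at 27.1, 19.9 and 29.3 TPM with LrpprcWT and at 14.1, 6.91 and 12.5 TPM with LrpprcP27A. The groups were separate, and the log2 fold change was -1.15 ± 0.25 (SE, n = 3 per group, limma adjusted p = 0.0220). Its partner C1s1, which is not a member, lies on the opposite strand with 6894 bases between the genes and was lower as well, with means of 48.8 ± 11.98 and 22.3 ± 7.14 TPM (SD, n = 3) and a log2 fold change of -1.11 (limma adjusted p = 0.0245). C2, whose product supplies the protease of the classical C3-cleaving enzyme, had a low level, with 3.14, 1.93 and 3.18 TPM with LrpprcWT and 1.46, 0.448 and 0.788 TPM with LrpprcP27A. Its groups did not overlap, with a log2 fold change of -0.998 ± 0.23 (SE, n = 3 per group, limma adjusted p = 0.0247).

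C4b, which encodes the C4 that C1s cleaves, was at 4.16, 2.62 and 6.83 TPM with LrpprcWT and at 2.83, 0.949 and 2.05 TPM with LrpprcP27A. The LrpprcWT muscle of replicate 2 lay below the LrpprcP27A muscle of replicate 1, so the groups overlapped, while each pair had its lower value with LrpprcP27A. The means were 4.54 ± 2.13 and 1.94 ± 0.945 TPM (SD, n = 3), and the log2 fold change was -0.89 ± 0.32 (SE, 95% interval -1.61 to -0.17), with a limma adjusted p of 0.0647 without pairing, 0.000229 with the replicate block and 0.0529 with the block and median-of-ratios scaling. The near-identical copies C4a and C1rb, from which reads could be split, were at no more than 0.139 and 0.0674 TPM in any library, and adding each to its partner changed no call.

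C4b (chr17:34947354-34962912), Cfb (chr17:35074852-35081559) and C2 (chr17:35081578-35117241) lie on the same strand, with 18 bases between Cfb and C2. Cfb was at 10.3, 7.30 and 18.7 TPM with LrpprcWT and at 6.88, 2.87 and 5.38 TPM with LrpprcP27A. The groups were separate by a narrow margin, 7.30 against 6.88 TPM, and the log2 fold change was -1.08 ± 0.34 (SE, n = 3 per group, limma adjusted p = 0.0490). Exons of Nelfe on the opposite strand cover 49.8% of the annotated exon bases of Cfb, and the library kit does not mark strand, so reads in that stretch cannot be assigned to either gene. Nelfe was at 7.30 ± 1.37 TPM with LrpprcWT and 4.61 ± 0.253 TPM with LrpprcP27A (SD, n = 3), a log2 fold change of -0.55 (limma adjusted p = 0.0390). A gene model on the strand of Cfb, Gm20547, shares 65.7% of the Cfb exon bases and 38.4% of those of C2, and was at 0 to 0.746 TPM in the 6 libraries.

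C3, the protein on which the pathways converge, lies further along the same chromosome (chr17:57510964-57535155). It was at 11.2, 14.9 and 23.3 TPM with LrpprcWT and at 20.02, 11.0 and 18.5 TPM with LrpprcP27A. The groups interleaved. The differences within pairs, LrpprcP27A minus LrpprcWT on the log2(TPM + 1) scale, were 0.78 in replicate 1, -0.41 in replicate 2 and -0.32 in replicate 3. The means were 16.5 ± 6.20 and 16.5 ± 4.84 TPM (SD, n = 3), and the log2 fold change was 0.01 ± 0.28 (SE, limma adjusted p = 0.967). The 95% interval, -0.62 to 0.65, leaves room for a decrease or an increase of that size. Against the median of all tested genes the value of C3 was higher by 0.33, and its sign depended on the libraries included, with values from -0.21 to 0.28 when each library was left out in turn.

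The C3 level therefore stood in another proportion to the rest of the members in the 2 groups. C3 amounted to 0.104 ± 0.033 of the summed C1q level with LrpprcWT and to 0.275 ± 0.042 with LrpprcP27A (SD, n = 3). The ratio of C3 to Cfb was 1.46 ± 0.509 and 3.39 ± 0.456, and that of C3 to C4b was 3.94 ± 1.56 and 9.21 ± 2.25. Each of these ratios was higher in every LrpprcP27A muscle than in any LrpprcWT muscle, and a ratio within a library does not depend on how libraries are scaled to each other. With 3 muscles per group an exact permutation test could not go below p = 0.1, and the ratios are given as a description.

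Serping1 (chr2:84595705-84620873) had the highest level of the members, at 98.5, 66.1 and 103.2 TPM with LrpprcWT and at 56.5, 30.4 and 49.1 TPM with LrpprcP27A. The groups were separate, and the log2 fold change was -0.98 ± 0.24 (SE, n = 3 per group, limma adjusted p = 0.0284). The inhibitor and its target proteases were thus lower together, and the ratio of Serping1 to the sum of C1ra and C1s1 was 1.20 ± 0.057 with LrpprcWT and 1.36 ± 0.056 with LrpprcP27A (SD, n = 3), with no overlap. By mean level over the 6 libraries the members ran from Serping1 through C1qa, C1qb, C1qc, C1ra, C3, Cfb and C4b to C2. Neighbours in this order overlapped in their ranges in both groups, except Cfb and C4b in both groups and C3 and Cfb with LrpprcP27A.

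The promoters of C1qb, C1qc and C3 are shown because the C1q genes had the most negative log2 fold changes among the members and C3 the one nearest to 0. The RefSeq promoter table, built on GRCm38.p6, holds 4 of the 9 members (these 3 and C1ra), and each of its sequences occurred once, letter for letter, in its chromosome on GRCm39. Printed are the 250 bases before the start site of that table, 5′ to 3′ on the strand of the gene, which is the minus strand, at chr4:136613512-136613761 for C1qb, chr4:136620226-136620475 for C1qc and chr17:57535137-57535386 for C3. The GENCODE models of C1qc (to 136620376) and C3 (to 57535155) reach into these windows, so part of each of these 2 sequences lies inside the annotated gene. The C1ra model (from 124489364) also begins inside its window. Distances below count from the start site of the promoter table. Capitals mark matches to PU.1, a factor of macrophages and other myeloid cells (searched as GAGGAAG), and to C/EBP, a family of factors of inflammation and the acute phase (searched as TTGCNNAA), on both strands.
C1qb: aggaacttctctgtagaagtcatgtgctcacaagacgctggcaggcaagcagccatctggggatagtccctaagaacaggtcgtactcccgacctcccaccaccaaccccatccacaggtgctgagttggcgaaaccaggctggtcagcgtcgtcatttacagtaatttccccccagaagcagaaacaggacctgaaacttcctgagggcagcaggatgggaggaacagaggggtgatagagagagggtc
C1qc: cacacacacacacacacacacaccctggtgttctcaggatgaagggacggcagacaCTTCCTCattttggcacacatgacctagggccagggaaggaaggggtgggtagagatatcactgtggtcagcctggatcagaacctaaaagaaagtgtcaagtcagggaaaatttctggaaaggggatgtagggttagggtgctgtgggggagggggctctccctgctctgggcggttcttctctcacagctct
C3: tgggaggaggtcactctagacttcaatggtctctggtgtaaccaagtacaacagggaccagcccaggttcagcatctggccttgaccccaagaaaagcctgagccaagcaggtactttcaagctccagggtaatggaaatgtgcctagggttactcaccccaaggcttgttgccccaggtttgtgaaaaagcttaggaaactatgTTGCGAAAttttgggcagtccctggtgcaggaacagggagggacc
The table's window of 300 bases, which runs on for 50 bases past the start, was searched. C1qc held the PU.1 letters on the other strand, 194 bases before the start, and 13.6% of the 32851 promoters in the table held them on either strand. C3 held a C/EBP match 45 bases before the start, as 10.8% of all promoters did anywhere in the window, and C1ra held one past its start. A looser C/EBP form, TTNNGNAA, which is not marked above, was present in 3 of the 4 members searched and in 40.7% of all promoters. These 3 were C1qc, 81 bases before the start, C1ra and C3. A site searched as TTCNNNGAA was present in C1ra past its start and in 8.3% of all promoters. The shorter ETS core CAGGAA, common to the family of PU.1, was present in all 4 members searched and in 30.6% of all promoters, and it overlaps no marked match. No match in the 4 was found for an interferon response factor site searched as TTCNCTTT, present in 7.65% of promoters, or for an NF-kB site searched as GGGANTTCC, present in 1.68%. These matches describe letters, and no binding was measured.

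Of 56 complement genes listed by role, 29 had a mean of at least 1 TPM, 16 of these were called lower and 0 higher (20 and 0 at an unadjusted limma p under 0.05), and the median log2 fold change was -0.78. Leaving out the 9 members, 9 of 20 were lower and 0 higher, with a median of -0.64. At this threshold 23.3% of all tested genes were lower. With the replicate block 21 of 29 were lower and 2 higher, the latter being Cfd and Clu, where 48.4% and 2.69% of all tested genes were.

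**Figure D2:**
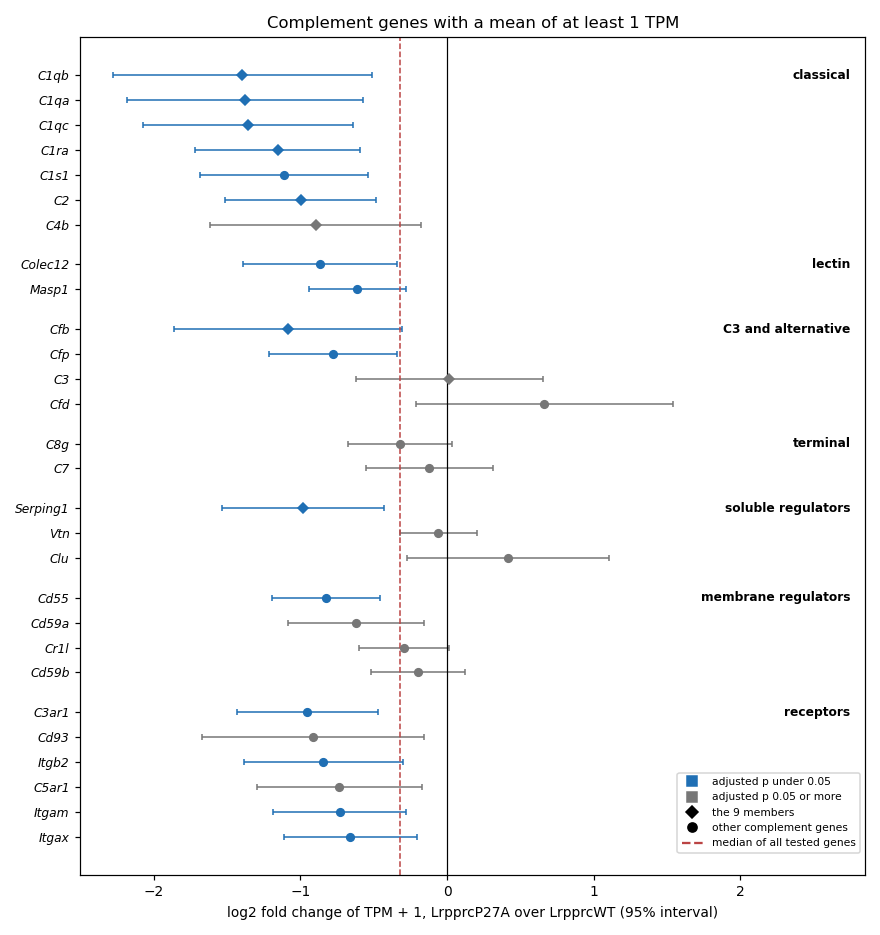
Log2 fold change of TPM + 1, LrpprcP27A over LrpprcWT, with 95% intervals (horizontal axis) for complement genes with a mean of at least 1 TPM, grouped by role, with 1 of the 29 not shown; diamonds are the 9 members, blue marks an adjusted p under 0.05, and the dashed line is the median of all tested genes at -0.32. The classical genes lie to the left of that line, while C3, Cfd and Clu lie at or above 0.

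All 7 classical genes tested, of which all but C1s1 are members, had values below the median of all genes. Of these 7, 6 were called lower, where 23.3% of all tested genes were, and their median log2 fold change was -1.15. Of 9 lectin pathway genes, which recognise sugars, 2 had a mean of at least 1 TPM and both were called lower. These were Masp1, a protease of that pathway, at 1.60 ± 0.188 and 0.709 ± 0.183 TPM (SD, n = 3, log2 fold change -0.61, limma adjusted p = 0.0259), and Colec12, a membrane collectin, at 4.14 ± 1.43 and 1.78 ± 0.546 TPM (log2 fold change -0.87, limma adjusted p = 0.0332). Mbl1 and Mbl2, the mannose-binding lectins made by liver, were listed at 0 in all 6 libraries.

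In the alternative pathway, besides Cfb, properdin (Cfp), which stabilises the alternative enzyme, was lower, at 7.59 ± 2.25 and 3.92 ± 0.469 TPM (SD, n = 3, log2 fold change -0.78, limma adjusted p = 0.0283). Factor D (Cfd), the protease that cleaves factor B and a product of fat cells, was at 7.46, 18.3 and 5.86 TPM with LrpprcWT and at 23.9, 12.9 and 11.9 TPM with LrpprcP27A. Its groups overlapped and replicate 2 went against the other pairs, with a log2 fold change of 0.66 ± 0.38 (SE, n = 3 per group, limma adjusted p = 0.191, 0.0233 with the replicate block, and 0.116 with the block and median-of-ratios scaling). The fat cell gene Adipoq had its highest values in the same library of each group as Cfd, at 0.955, 2.12 and 0.751 TPM and at 2.94, 0.664 and 0.847 TPM, and its part in the Cfd values was not tested.

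Among the terminal genes, whose products form the membrane pore, 2 of 7 had a mean of at least 1 TPM and 0 were called by limma in either direction, with 0 also at an unadjusted p under 0.05 and 0 with the replicate block. C7 had a log2 fold change of -0.12 (limma adjusted p = 0.609) and C8g of -0.32 (limma adjusted p = 0.133). Hc, which encodes C5, was at no more than 0.0641 TPM in any library.

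Of the soluble regulators, 1 of 4 tested was lower, a share near the 23.3% of all tested genes, and this was the member Serping1. Clu, the chaperone clusterin, which binds terminal complexes, was at 13.98, 24.6 and 15.4 TPM with LrpprcWT and at 14.2, 29.3 and 31.4 TPM with LrpprcP27A. It was higher in all 3 pairs, with a log2 fold change of 0.42 (limma adjusted p = 0.286, and 0.0318 with the replicate block). Vtn, vitronectin, was at 21.2 ± 1.68 and 20.3 ± 1.16 TPM (SD, n = 3), a log2 fold change of -0.06 (limma adjusted p = 0.682) that is above 0 under the 3 other scalings of the libraries.

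Of the membrane regulators, which protect the cell that carries them, 1 of 4 tested was lower, a share near the 23.3% of all tested genes. This was Cd55, which speeds the decay of C3-cleaving enzymes, at 44.9, 29.6 and 41.2 TPM with LrpprcWT and 22.9, 20.3 and 19.9 TPM with LrpprcP27A (log2 fold change -0.83, limma adjusted p = 0.0178). Cd59a, which blocks the pore, was at 34.2 ± 6.19 and 22.2 ± 6.40 TPM (SD, n = 3), a log2 fold change of -0.62 (limma adjusted p = 0.0537, and 0.000667 with the replicate block), which became -0.26 (limma adjusted p = 0.195) with the block and median-of-ratios scaling. Cd59b and Cr1l had log2 fold changes of -0.20 and -0.29 (limma adjusted p = 0.275 and 0.117), both above 0 with median-of-ratios scaling and quantile normalization.

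The receptors, most of them on leukocytes, all had values below 0. Of 6 tested, 4 were lower, and with the replicate block all 6 were, beside 23.3% and 48.4% of all tested genes. The receptor for C3a, C3ar1, was at 3.03 ± 0.961 and 1.07 ± 0.397 TPM (SD, n = 3, log2 fold change -0.95, limma adjusted p = 0.0236). The genes for subunits of the complement receptors that bind fragments of C3 were lower as well, with log2 fold changes of -0.73 for Itgam, -0.66 for Itgax and -0.84 for their shared partner Itgb2 (limma adjusted p = 0.0352, 0.0444 and 0.0385). C5ar1, the receptor for C5a, had a log2 fold change of -0.73 (limma adjusted p = 0.0572, 0.00158 with the replicate block, and 0.0888 with the block and median-of-ratios scaling), and Cd93, which is also expressed by endothelium, of -0.92 (limma adjusted p = 0.0683, and 4.87e-05 with the replicate block).

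Cytokines and factors known to induce complement genes were listed as well, and 3 of 14 tested were lower, or 11 of 14 with the replicate block, beside 23.3% and 48.4% of all tested genes. The first share is near that of all genes. Il6 was at 8.36, 1.29 and 12.3 TPM with LrpprcWT and at 0.744, 0.042 and 0.0838 TPM with LrpprcP27A (log2 fold change -2.39, limma adjusted p = 0.0257). Its groups were separate but the LrpprcWT muscles spread widely. Il1b was at 9.93 ± 2.82 and 2.84 ± 1.97 TPM (SD, n = 3, log2 fold change -1.59, limma adjusted p = 0.0205), and Irf1, an interferon response factor, at 10.7 ± 2.71 and 5.41 ± 2.20 TPM (log2 fold change -0.89, limma adjusted p = 0.0439). Of the 3 with the highest levels outside these, Cebpb had a log2 fold change of -0.55 (limma adjusted p = 0.243, 0.00161 with the replicate block, and 0.210 with the block and median-of-ratios scaling), and the receptor chains Ifngr2 and Il6st had -0.12 and -0.08 (limma adjusted p = 0.370 and 0.543), both above 0 under the 3 other scalings.

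Most tested markers of macrophages, fibroblasts and satellite cells were called lower, as most members were, whereas all tested blood and adipocyte markers had log2 fold changes above 0. Fewer cells of a type and less RNA per cell cannot be told apart in these bulk samples, and the part of either in the complement values was not tested. Of 10 macrophage markers, 7 of 8 tested were lower, with a median log2 fold change of -0.99, and their summed level was 248 to 449 TPM with LrpprcWT and 91.8 to 156 TPM with LrpprcP27A. The highest in level was Lyz2 (log2 fold change -1.54, limma adjusted p = 0.0144). Cd163, a macrophage marker under the 1 TPM limit and not tested, was at 0.315, 0.581 and 0.480 TPM with LrpprcWT and 1.08, 0.821 and 1.67 TPM with LrpprcP27A, higher in each LrpprcP27A muscle than in any LrpprcWT muscle, and was named after its values were seen. Of 9 fibroblast markers 8 were lower (9 with the replicate block), with a median of -1.39 and a summed level of 1023 to 1708 TPM with LrpprcWT and 275 to 604 TPM with LrpprcP27A, led in level by Col3a1 (log2 fold change -2.14) and Col1a1 (-2.22). Of all tested genes, 23.3% were lower without pairing and 48.4% with the block.

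The members were also set against these markers within each library. The summed C1q level was 0.492 ± 0.064 of the macrophage marker sum with LrpprcWT and 0.487 ± 0.095 with LrpprcP27A (SD, n = 3). Without Lyz2, which alone supplies most of that sum, the ratio was 2.16 ± 0.327 and 1.63 ± 0.493. Both pairs of groups overlapped. The sum of C3, C4b, C1ra and Serping1 was 0.446 ± 0.069 of the fibroblast marker sum without collagens with LrpprcWT and 0.527 ± 0.052 with LrpprcP27A, again with overlap. Over all fibroblast markers, collagens included, it was 0.096 ± 0.012 and 0.189 ± 0.039, with every LrpprcP27A muscle above every LrpprcWT muscle.

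**Figure D3:**
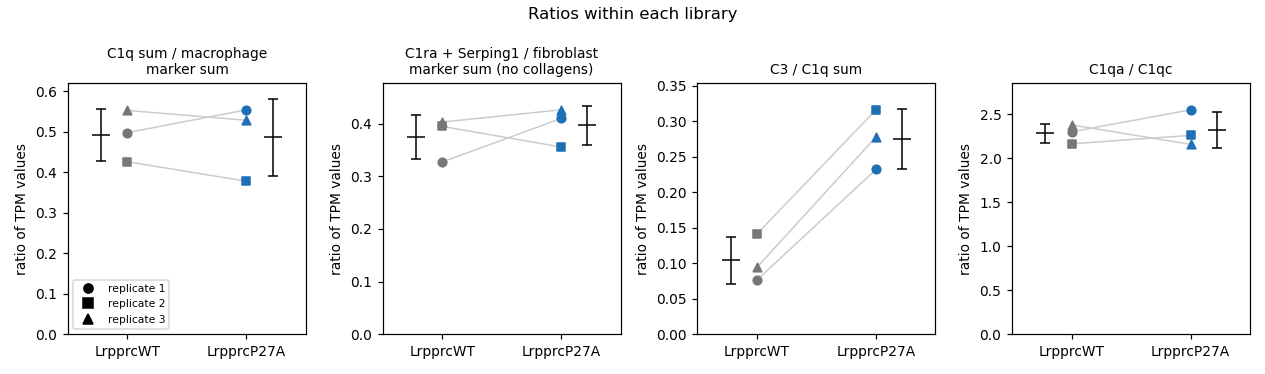
Ratios of TPM values within each library (vertical axes, from 0) in LrpprcWT muscles (grey) and LrpprcP27A muscles (blue). Lines join muscles with the same replicate number, and bars give the mean and SD. C1q over macrophage markers (0.492 and 0.487), C1ra plus Serping1 over fibroblast markers without collagens (0.375 and 0.397) and C1qa over C1qc (2.28 and 2.32) overlap between the groups, while C3 over C1q is higher in all 3 LrpprcP27A muscles.

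The other marker lists had these values. Hepatocyte markers were at no more than 0.267 TPM in sum in any library, with Alb, Ttr, Serpina1a and Fgb listed at 0 in all 6. Endothelial markers, led by Cdh5 and Pecam1, had 2 of 7 lower (6 with the replicate block), with sums of 167 to 301 TPM with LrpprcWT and 125 to 172 TPM with LrpprcP27A. Satellite cell markers had 3 of 4 lower (4 with the replicate block), led in level by Myod1 and Myog (log2 fold change of Myog -2.35, limma adjusted p = 0.0116), with sums of 61.7 to 106 and 24.3 to 34.1 TPM. Of the neutrophil (4 tested, led by S100a9 and S100a8, with Mpo at 0 in all libraries), mast cell (4, led by Mcpt4 and Cma1), lymphocyte (1, Cd79a), adipocyte (2, Adipoq and Cidec) and blood markers (5, led by Hbb-bs and Hba-a2), 0 were called by limma in either direction without pairing (1 neutrophil and 1 mast cell marker were lower at an unadjusted p under 0.05), and with the replicate block 2 neutrophil, 1 mast cell and 1 lymphocyte marker were lower and 2 blood markers higher. Their sums ran, for LrpprcWT and LrpprcP27A, from 35.2 to 57.1 and 25.4 to 41.3 TPM for neutrophils, 6.80 to 13.8 and 5.10 to 10.6 TPM for mast cells, 3.405 to 4.62 and 1.25 to 2.79 TPM for lymphocytes, 1.86 to 4.86 and 2.00 to 6.32 TPM for adipocytes, and 2610 to 4206 and 3784 to 4719 TPM for blood. Muscle fibre markers, led by Acta1 and Tnnt3, were abundant in all 6 libraries, with sums of 117549 to 128752 and 107904 to 119173 TPM, and 1 of 8 (Mylpf) was lower, or 2 lower and 1 higher with the replicate block. These counts stand beside 23.3% of all tested genes lower without pairing and 48.4% with the block.

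Some genes followed the members closely across the 6 libraries. By the root mean square difference of centred log2(TPM + 1) among 11602 other genes, those nearest to the mean C1q profile were Trib1 at 0.162, Phlda1 at 0.170 and Fcgr3, an Fc receptor of macrophages, at 0.171. Of the members other than the C1q chains themselves, Cfb was nearest to that profile at 0.158 and C3 farthest at 0.747. For C3 the nearest were Nmb at 0.125, the mast cell protease Mcpt4 at 0.160 and Ntsr2 at 0.195. Mcpt4 was at 3.31, 3.00 and 5.61 TPM with LrpprcWT and at 4.80, 2.58 and 4.08 TPM with LrpprcP27A. These are descriptions over 6 libraries that share the difference between the groups.

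The direction of 8 members did not depend on how libraries were scaled, but their calls did. With median-of-ratios scaling, which brings the median of all genes to -0.0047, the log2 fold changes were -1.01 for C1qa, -1.03 for C1qb, -1.003 for C1qc, -0.80 for C1ra, -0.77 for C2, -0.62 for C4b, -0.75 for Cfb and -0.61 for Serping1, and 0.37 for C3. Without pairing 0 of 9 members were called lower on that scale (7 at an unadjusted p under 0.05), and with the replicate block 7 were. Of all 11611 tested genes, 700 were lower on that scale without pairing and 1839 with the block. The calls also rested on single libraries, with 0 members lower without LrpprcWT replicate 1 or LrpprcWT replicate 3, 1 without LrpprcP27A replicate 2 or LrpprcP27A replicate 3, and 8 without LrpprcWT replicate 2 or LrpprcP27A replicate 1, while the 8 members stayed below 0 in each case. The calls over all 11611 tested genes moved as well. Without these libraries, in the same order, 291, 15, 504, 440, 6913 and 1688 of all tested genes were lower.

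**Figure D4:**
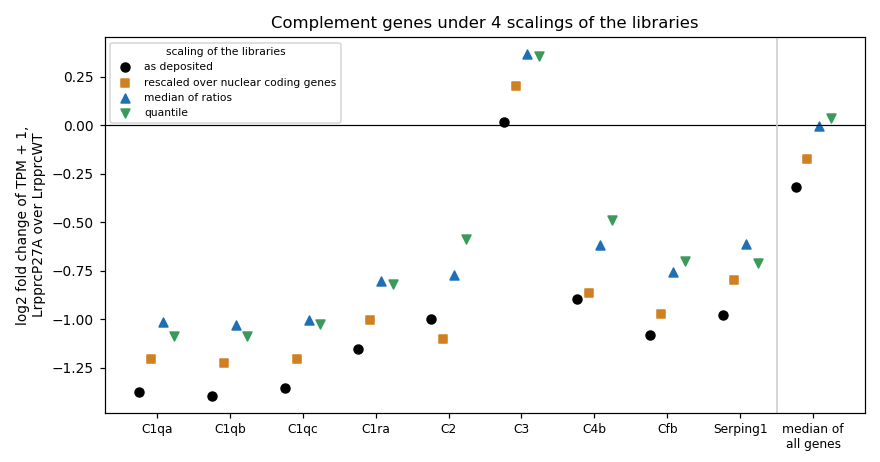
Log2 fold change of TPM + 1, LrpprcP27A over LrpprcWT (vertical axis), of the 9 members and, at the right, the median of all tested genes, under 4 scalings of the libraries given by symbol and colour. All members but C3 lie below 0 and below that median under each scaling, and C3 lies above it, from 0.01 as deposited to 0.37 with median of ratios.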

How the data were processed

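RNA-seq was done on 6 TA muscles. Reads were trimmed by quality and length and mapped with CLC Genomics Workbench to GRCm39 by the authors, who deposited TPM per gene, so depth per library is unknown. From these, log2(TPM + 1) was compared between LrpprcP27A and LrpprcWT with limma 3.58.1 (trend, R 4.3.3), without pairing, for genes with a mean of at least 1 TPM, with Benjamini-Hochberg adjustment over all tested genes. The study's Kruskal-Wallis test, the replicate block, another pseudocount and filter, 3 other scalings and leaving out each library were alternatives. Same-numbered libraries were taken as pairs. This is inferred from their shared numbers and the contralateral design, and no label states that they come from the same mouse. Their deviations from the group means correlated by 0.36, 0.53 and 0.36 across genes. The fit was tested on simulated data. The members, the lists and the ratios were chosen with earlier results of these data known. Named are all members, the genes of each role list that were called or otherwise up to 3 with the highest mean TPM, the 3 nearest genes to each profile, and of each marker list up to 2 with the highest mean TPM and those at 0. Gene positions are from GENCODE. Some genes that this rule names are not reported here.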

Additional observations from a re-analysis of the deposited data

How the results depend on the processing

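TPM keeps no depth, so the counting error of low genes such as C2 is unknown, and with 3 muscles per group the calls depended on the settings. Of the members, 0 were called lower by the Kruskal-Wallis test, with no filter on low values, and with median-of-ratios scaling, quantile normalization or rescaling over nuclear protein-coding genes (7, 8, 7, 6 and 7 at an unadjusted p under 0.05), against 7 as reported and 0 to 8 with each library left out. With 3 muscles per group the Kruskal-Wallis test cannot reach a small adjusted p. It called 0 of all 11611 tested genes in either direction, so its 0 is no result about the members. Between 5 and 8 members were lower under the other alternatives, the 5 being of 7 tested at a mean TPM of at least 5, and 0 were higher under any. Of the 29 complement genes, 16 were lower as reported and 0 by the Kruskal-Wallis test. With no filter 0 of 49 tested were lower, and 8 of 16 tested at a mean TPM of at least 5. The number was 2 with median-of-ratios scaling, 1 with quantile normalization, 1 after rescaling over nuclear protein-coding genes, and 0 to 21 with each library left out. The calls over all tested genes fell in most of these settings too. As reported 2705 of 11611 were lower, with no filter 42 of 21450, and at a mean TPM of at least 5, 1560 of 7082. The number over all tested genes was 700 with median-of-ratios scaling, 518 with quantile normalization and 634 after the rescaling. It was 15 to 6913 with each library left out. The number of complement genes higher was 0 as reported, 2 with the replicate block, 1 with the block and median-of-ratios scaling, and 0 to 1 with each library left out. Over all tested genes the numbers higher in these settings were 156, 312, 1561, and 3 to 304. Of the members, the replicate block changed the call of C4b and no other.

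The genes below changed sign under an alternative and had no call as reported, and Ifngr2 was called higher with the replicate block and median-of-ratios scaling together (limma adjusted p = 0.0463). The log2 fold change of C3 ran from -0.21 to 0.28 with each library left out, that of C7 from -0.25 to 0.086, and that of Vtn from -0.10 to 0.0019. With median-of-ratios scaling, with or without the block, the log2 fold changes were 0.14 for C7, 0.094 for Cd59b, 0.035 for Cr1l, 0.25 for Ifngr2, 0.28 for Il6st and 0.30 for Vtn. With quantile normalization they were 0.27 for C7, 0.051 for C8g, 0.19 for Cd59b, 0.10 for Cr1l, 0.19 for Ifngr2, 0.23 for Il6st and 0.26 for Vtn. After rescaling over nuclear protein-coding genes they were 0.014 for C7, 0.072 for Ifngr2, 0.10 for Il6st and 0.13 for Vtn. These alternatives moved the median of all tested genes upward from -0.32, to -0.0047, 0.04 and -0.17 in turn. The cause of the changes with single libraries was not tested.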
